A study of Rattus norvegicus with 12 samples.

Results

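Calcium/calmodulin-dependent kinases are serine/threonine kinases that are switched on when calcium enters a cell and binds calmodulin. Their genes were read here in bulk RNA sequencing of the rat striatum, where 10 of the 17337 genes in the count table carry the symbols *Camk1*, *Camk1d*, *Camk1g*, *Camk2a*, *Camk2b*, *Camk2d*, *Camk2g*, *Camk4*, *Camkk1* and *Camkk2*. The genes were chosen by symbol, but the family was taken up with the high level of *Camk1g* in non-addicted against MA12 rats already known. That comparison is therefore given as levels and fold changes with no test, and the level of *Camk1g* in the non-addicted rats is a description wherever it appears.

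The 12 rats were adult male wild-type Sprague–Dawley rats, and per the labels all of them self-administered methamphetamine (MA) for 16 days. The MA12 group held 4 rats killed after 12 h of abstinence, and the MA24 group held 4 rats killed after 24 h. The third group held 4 rats that the labels call non-addicted after the same 16 days. Neither the labels nor the methods state how non-addicted was defined or when these rats were killed. By these labels, none of the 3 groups is a drug-free control. Besides MA12 and MA24, the study's methods describe a group that self-administered saline and a group, called M, that self-administered MA for 16 days. No hours of abstinence are given for the M group. Only rats with stable lever pressing were kept in the saline and MA groups. The methods describe no group called non-addicted. Whether the non-addicted rats correspond to the saline group, the M group or other rats is not stated. Rats entered MA training only after they had learned to press a lever for food. MA12 and MA24 differ by 12 h, so that hours of abstinence and time of day cannot be told apart. Each library came from the whole striatum of 1 rat.

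In neurons these kinases form 2 arms. The *Camk2* genes encode the subunits of CaMKII, a large holoenzyme of the postsynaptic density that can hold its own activity by autophosphorylation and is a central enzyme of synaptic plasticity. In the other arm, the upstream kinases encoded by *Camkk1* and *Camkk2* phosphorylate the kinases of the *Camk1* genes in the cytoplasm and of *Camk4* in the nucleus, where *Camk4* acts on CREB and its coactivators. In the striatum the pathway lies downstream of glutamate receptors and calcium channels of the medium spiny neurons.

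Libraries held 17908962 to 23850284 counts each. No pair of libraries of a group agreed within sampling noise (chi-square per degree of freedom 9.72 to 28.0 over 18 pairs), so all 12 counted as separate samples. All 9 markers of striatal projection neurons were present, with a summed level of 13713 to 18160 CPM (counts scaled to the depth of each library), against 6.73 to 16.0 CPM for 6 markers of cortical excitatory neurons. Markers of astrocytes summed to 1726 to 2274 CPM, of microglia to 208 to 359 CPM and of the hypothalamus to 0.789 to 13.0 CPM, with 1 of the 4 hypothalamic markers at 0 in all rats. All MA24 rats and 2 of the 4 MA12 rats have numbers that end in N in the labels, and no non-addicted rat has. What the N stands for is not given in the sources used here. In bulk tissue, fewer cells of a type and less RNA per cell cannot be told apart.

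Between 24 h and 12 h of abstinence 1 of the 10 kinase genes passed the test (adjusted p below 0.05), where 5.16% of all genes tested passed. *Camk2d*, which encodes the delta subunit of CaMKII, was lower in MA24 rats, at 0.601 of its MA12 level. The genes of the neuronal alpha and beta subunits, *Camk2a* and *Camk2b*, differed by 0.06 and 0.12 on the log2 scale and did not pass. In the non-addicted rats the gene that stood apart was *Camk1g*, a kinase of the cytoplasmic arm, with a level 1.74-fold that of MA24 rats and 1.71-fold that of MA12 rats. *Camkk1*, the gene of an upstream kinase, lay lower in all 4 MA12 rats than in the other 8 rats and did not pass between MA24 and MA12.

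**Figure D1:**
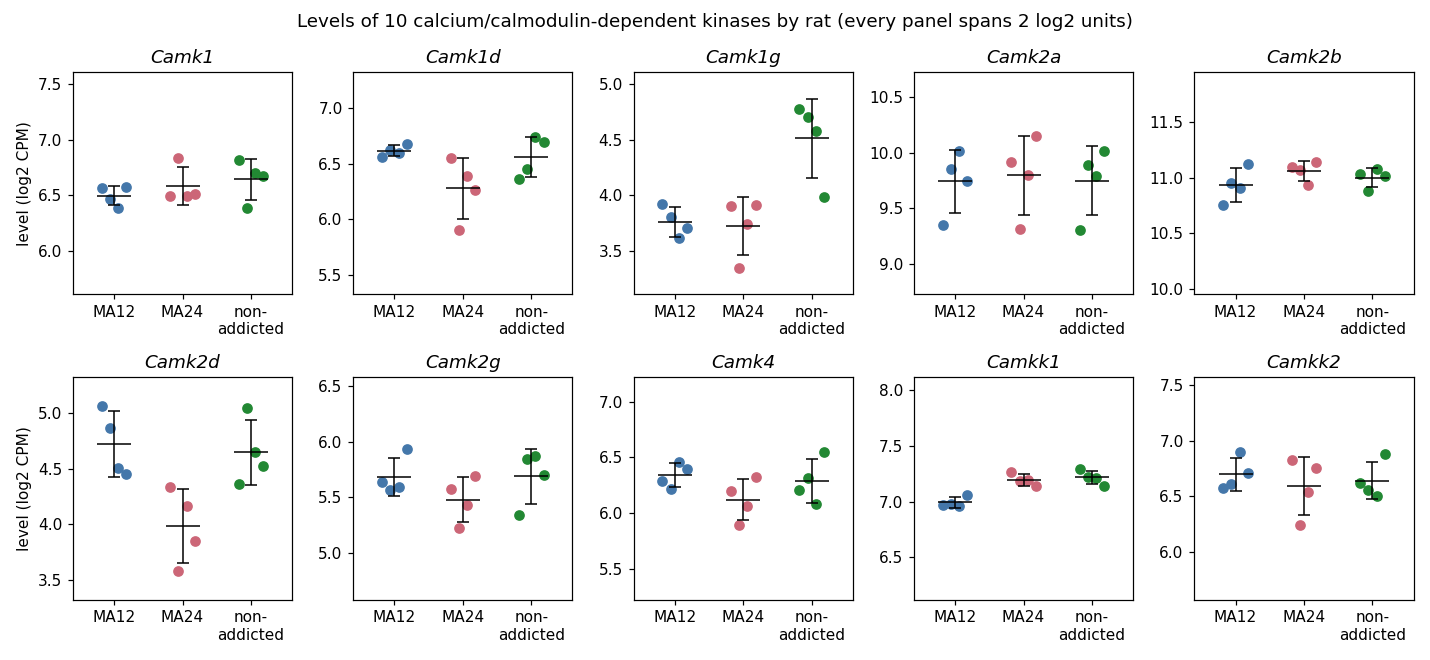
Level of each of the 10 kinase genes in log2 CPM (y axis, a different range in each panel but always 2 log2 units) in the MA12, MA24 and non-addicted groups (x axis). Points are rats, long bars are means and error bars are SD (n = 4). *Camk2d* is lowest in MA24 rats (3.58 to 4.33), and *Camk1g* is highest in non-addicted rats (3.99 to 4.78).

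Levels are given as log2 CPM, that is, log2 of CPM after scaling by the trimmed mean of M values (TMM) over the 12 libraries, with a prior count of 2. Levels are compared between rats and not between genes, because transcript lengths were not used here. The alpha and beta subunit genes are described first, since they encode the main CaMKII subunits of forebrain neurons. *Camk2a* had levels of 9.35, 9.85, 10.02 and 9.75 in the MA12 rats, 9.91, 9.31, 9.80 and 10.15 in the MA24 rats, and 9.30, 9.89, 9.79 and 10.01 in the non-addicted rats. The ranges of the 3 groups overlapped almost fully, with group means of 9.74 ± 0.29, 9.79 ± 0.35 and 9.75 ± 0.31 (SD, n = 4), and 1 rat of each group (MA12 rat 21, MA24 rat 14N and non-addicted rat 9) lay well below the others. *Camk2b* varied least of the CaMKII genes, with levels of 10.76 to 11.12 in MA12 rats, 10.94 to 11.14 in MA24 rats and 10.88 to 11.08 in non-addicted rats.

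*Camk2d* encodes the delta subunit, which is known best from heart and is also made in brain. Its levels in the MA12 rats were 5.06, 4.87, 4.50 and 4.45 (counts of 792, 697, 480 and 386). In the MA24 rats they were 4.33, 3.58, 4.16 and 3.85 (466, 241, 347 and 272). In the non-addicted rats they were 4.36, 5.05, 4.65 and 4.52 (393, 669, 609 and 440). Every MA24 rat lay below every rat of the other groups, although the highest MA24 rat (4.33) was close to the lowest non-addicted rat (4.36). The fall from MA12 to MA24 was a log2FC of -0.73 (SE 0.16, 95% confidence interval -1.08 to -0.39), and it passed the quasi-likelihood test of edgeR (adjusted p = 0.0162, Benjamini-Hochberg over 10754 genes). In that comparison 3.32% of all genes tested passed in the lower direction, and 2.45% were differentially expressed genes (DEGs), which also required a fold change of at least 1.5. *Camk2d* was also a DEG. With 1 member of 10 passed, the count is a result about *Camk2d* and not about the family.

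The call rested in part on which rats were compared. *Camk2d* was higher in the MA12 rats 21 and 31 than in the MA12 rats 4N and 7N. Between the N rats alone the log2FC was -0.46 (adjusted p = 0.238, edgeR), and with the kind of number as a covariate it was -0.47 (adjusted p = 0.216). Without MA12 rat 21 it was -0.60 (adjusted p = 0.0608). It passed in 14 of the 17 alternatives, and its sign was the same in all 17.

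The summed level of 4 thalamic markers, which was mostly *Prkcd*, moved with *Camk2d*. It was 33.9 to 62.7 CPM in MA12 rats, 28.9 to 33.3 CPM in MA24 rats and 27.6 to 73.4 CPM in non-addicted rats, and the rats with the highest sums were MA12 rats 21 and 31 and non-addicted rat 11, the same 3 rats that were highest for *Camk2d*. The marker list and *Camk2d* were set side by side after their values were seen. Over the 12 libraries the marker sum and the *Camk2d* level had a Pearson r of 0.78 (0.70 after removal of group means). Of the 4 markers, *Prkcd*, which encodes a protein kinase C isoform that some striatal neurons also express, passed between MA24 and MA12 (log2FC -0.94, SE 0.20, adjusted p = 0.0131, edgeR). *Tcf7l2* (-0.21, adjusted p = 0.462) and *Lef1* (-0.25, adjusted p = 0.558) did not pass, and *Slc17a6* was not tested. In MA12 rats the mean level was 34.5 CPM for *Prkcd*, 8.86 for *Tcf7l2*, 5.67 for *Lef1* and 0.152 for *Slc17a6*. The part of these markers in the *Camk2d* result was not tested.

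Set against MA24 rats, *Camk2d* in the non-addicted rats had a log2FC of 0.65 (SE 0.17, 95% confidence interval 0.304 to 1.003), but the adjusted p of 0.0795 (edgeR, 10744 genes) did not pass. This comparison uses the same MA24 rats as the one with MA12, so the low MA24 values enter both. The groups did not overlap for *Camk2d* and *Camk1g*, 2 of the 10 kinase genes, against 10% of all genes tested. Nothing is read from this count, because the high *Camk1g* level in the non-addicted rats was known when the family was chosen. For *Camk2d*, the non-addicted rats differed from MA12 rats by a log2FC of -0.08 (SE 0.15).

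*Camk2g*, the gene of the gamma subunit, had levels of 5.57 to 5.94 in MA12 rats, 5.22 to 5.69 in MA24 rats and 5.34 to 5.88 in non-addicted rats. It did not pass between MA24 and MA12 (log2FC -0.20, SE 0.12, adjusted p = 0.308, edgeR). The mix of CaMKII transcripts was also read within each rat, as the share of each gene in the summed counts of the 4 *Camk2* genes. *Camk2d* held 0.687% to 1.35% of these counts in MA12 rats, 0.415% to 0.623% in MA24 rats and 0.722% to 1.13% in non-addicted rats. *Camk2g* held 1.59% to 2.02%, 1.31% to 1.49% and 1.45% to 1.96%. For both genes the MA24 and MA12 ranges did not overlap, and for *Camk2g* the MA24 and non-addicted ranges did. The *Camk2g* levels of MA12 and MA24 rats did overlap. So did the within-rat log2 ratio of *Camk2g* to *Camk2a* (-4.43 to -3.71 in MA12 and -4.46 to -4.09 in MA24 rats). *Camk2a* and *Camk2b* made up the rest of the *Camk2* counts, with 22.4% to 34.2% and 63.4% to 75.8% over the 12 rats. The within-rat log2 ratio of *Camk2a* to *Camk2b* was -1.19 ± 0.25 in MA12, -1.27 ± 0.34 in MA24 and -1.25 ± 0.35 in non-addicted rats (SD, n = 4), differences well below the spread between rats. These shares are of counts, which also scale with transcript length.

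**Figure D2:**
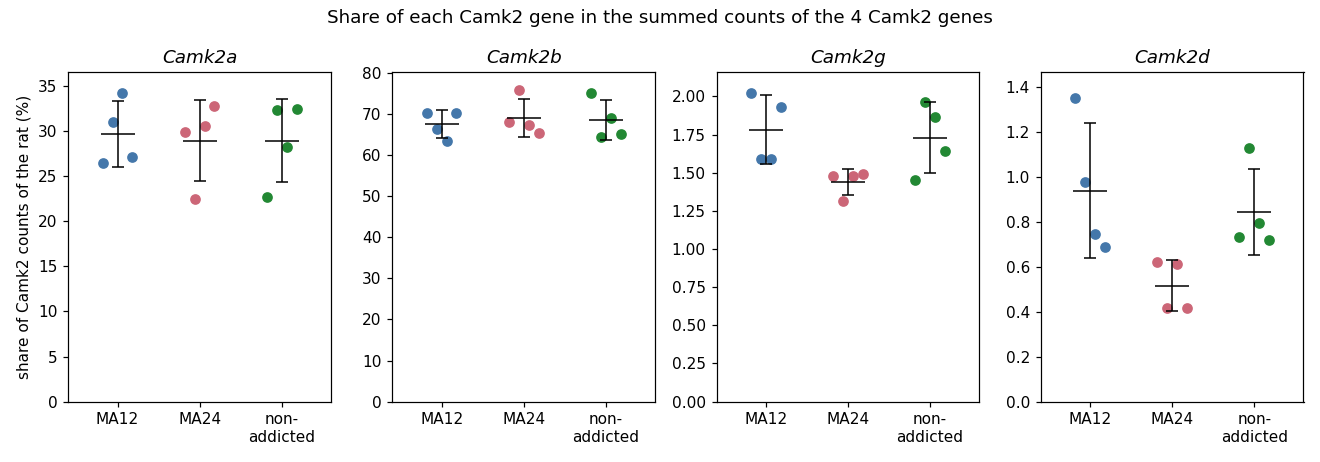
Share of each CaMKII subunit gene in the summed counts of the 4 *Camk2* genes of a rat, in percent (y axis from 0, a different scale in each panel), by group (x axis). Points are rats, long bars are means and error bars are SD (n = 4). The MA24 rats hold the lowest *Camk2d* shares (0.415% to 0.623%), and the *Camk2a* and *Camk2b* shares overlap between groups.

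In the cytoplasmic arm, *Camk1g* encodes CaMKI gamma, a membrane-anchored, neuron-enriched form that is known for its part in dendrite growth. Its levels were 4.78, 4.70, 4.58 and 3.99 in the non-addicted rats (counts of 524, 526, 581 and 303). They were 3.92, 3.80, 3.61 and 3.71 in the MA12 rats (358, 332, 258 and 230) and 3.90, 3.35, 3.74 and 3.91 in the MA24 rats (346, 205, 259 and 283). All 4 non-addicted rats lay above the other 8, but rat 13 (3.99) was close to the highest MA12 rat (3.92), while rats 9, 11 and 12 lay well above it. The group means were 4.51 ± 0.36 in non-addicted, 3.76 ± 0.13 in MA12 and 3.73 ± 0.26 in MA24 rats (SD, n = 4).

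The log2FC of *Camk1g* was 0.77 (SE 0.15) against MA12 rats and 0.80 (SE 0.17) against MA24 rats. Both comparisons use the same 4 non-addicted rats. Against MA24 rats, *Camk1g* was the 1 member called, where 0.549% of the genes tested passed. Against MA12 rats 0.27% of all genes passed, and the members were not tested. Nothing is read from the call against MA24 rats, because the high level in the non-addicted rats was known when the family was chosen. The call against MA24 rats was present in 5 of 15 alternatives and was lost without the variance filter, under which 0 of all 12640 genes passed in edgeR (2229 at an unadjusted p below 0.05), and without any one of non-addicted rats 9, 11 and 12 and MA24 rats 15N and 16N. The size was steadier than the call, at 0.68 to 0.94 over the 15 alternatives. Without non-addicted rat 13, the log2FC was 0.94. Between MA24 and MA12 rats *Camk1g* differed by -0.02 (SE 0.15, 95% confidence interval -0.34 to 0.29, adjusted p = 0.948, edgeR), a difference within the spread of either group. In the comparison with MA24 rats the kind of rat number and the group cannot be told apart. Against the 2 MA12 rats numbered without N, the log2FC was 0.70.

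**Figure D3:**
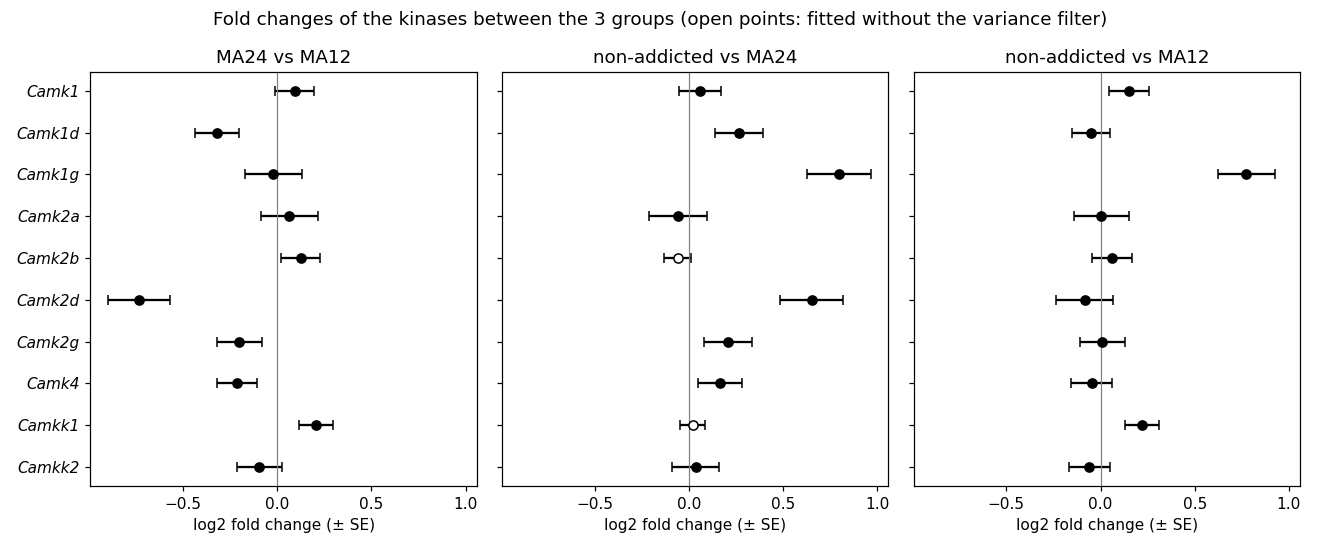
Log2 fold changes of the 10 kinase genes (x axis, ± SE) for MA24 vs MA12, non-addicted vs MA24 and non-addicted vs MA12, with 4 rats per group, as fitted by edgeR. Open points are genes removed by the variance filter and fitted without it. *Camk2d* is the lowest point for MA24 vs MA12 (-0.73), and *Camk1g* is the highest in both comparisons with non-addicted rats (0.80 and 0.77).

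Endothelial markers moved in the other direction to *Camk1g*. The summed level of 5 markers was 285 to 403 CPM in non-addicted rats, 387 to 504 CPM in MA12 rats and 460 to 508 CPM in MA24 rats. All 5 had a log2FC below 0 in non-addicted against MA24 rats, and *Cldn5* (-0.68, SE 0.12, adjusted p = 0.0241, edgeR) and *Kdr* (-0.85, SE 0.17, adjusted p = 0.0354, edgeR) passed. Non-addicted rat 13, the lowest of its group for *Camk1g*, had the highest endothelial sum of its group. Over the 12 libraries the sum and the *Camk1g* level had a Pearson r of -0.90 (-0.70 after removal of group means), a pair chosen after its values were seen. In non-addicted against MA24 rats, other marker sets differed too. The 5 oligodendrocyte markers were at 11138 to 16492 CPM in non-addicted and 17289 to 20370 CPM in MA24 rats, and *Mbp* passed (log2FC -0.53, adjusted p = 0.0443, edgeR). The choroid plexus and ependyma markers were at 24.3 to 60.1 CPM and 16.1 to 22.4 CPM, and *Foxj1* passed (1.08, adjusted p = 0.0354, edgeR). All 5 microglial markers had a log2FC below 0, and none passed. The part of these markers in the *Camk1g* values was not tested.

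**Figure D4:**
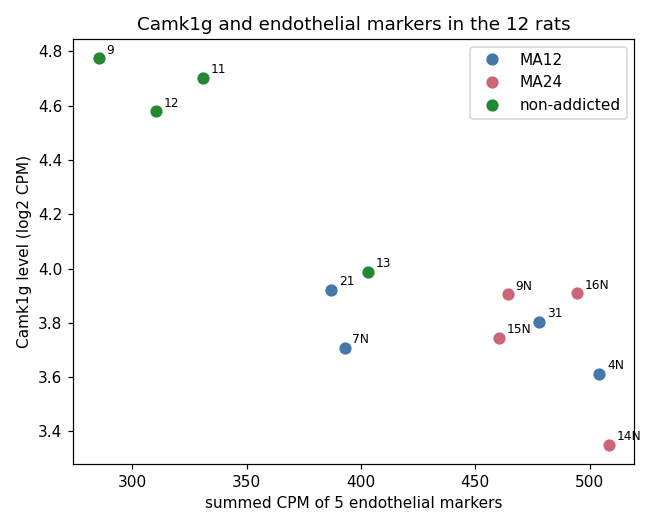
*Camk1g* level in log2 CPM (y axis) against the summed CPM of 5 endothelial markers (x axis) in the 12 rats, each labelled with its number and coloured by group. The 4 non-addicted rats lie at the upper left, with rat 13 (403 CPM) nearest to the other groups.

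*Camk1*, the gene of the widely expressed CaMKI alpha, had levels of 6.56, 6.47, 6.38 and 6.57 in MA12 rats, 6.50, 6.83, 6.49 and 6.51 in MA24 rats and 6.82, 6.38, 6.70 and 6.68 in non-addicted rats. The groups overlapped, and the interval for MA24 vs MA12 spanned -0.12 to 0.31 (log2FC 0.09, adjusted p = 0.618, edgeR). *Camk1d*, the gene of CaMKI delta, had levels of 6.56, 6.63, 6.60 and 6.68 in MA12 rats, 6.55, 5.91, 6.39 and 6.27 in MA24 rats and 6.36, 6.45, 6.74 and 6.69 in non-addicted rats. The MA12 rats were close together and all above the MA24 rats, although the nearest rats of the groups were at 6.56 and 6.55. The log2FC of -0.32 (SE 0.12, 95% confidence interval -0.56 to -0.07) did not pass (adjusted p = 0.110, edgeR), and it was -0.21 (adjusted p = 0.276) without MA24 rat 14N and -0.42 (adjusted p = 0.0376) without MA24 rat 9N. Groups that did not overlap were seen for 15.6% of all genes in this comparison and for 3 of the 10 kinase genes, *Camk1d*, *Camk2d* and *Camkk1*. Within rats, the log2 ratio of *Camk1g* to *Camk1* was -2.13 ± 0.42 in non-addicted, -2.73 ± 0.10 in MA12 and -2.85 ± 0.42 in MA24 rats (SD, n = 4).

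*Camk4*, the gene of the nuclear kinase, had levels of 6.22 to 6.46 in MA12 rats, 5.90 to 6.32 in MA24 rats and 6.08 to 6.55 in non-addicted rats. It did not pass between MA24 and MA12 (log2FC -0.21, SE 0.11, adjusted p = 0.232, edgeR) or between non-addicted and MA24 rats (0.17, SE 0.12, adjusted p = 0.461). Of the upstream kinases, *Camkk1* had levels of 6.97, 6.98, 6.96 and 7.06 in MA12 rats, 7.27, 7.19, 7.19 and 7.14 in MA24 rats and 7.29, 7.22, 7.21 and 7.14 in non-addicted rats. The MA12 rats were below all others, while the MA24 and non-addicted rats overlapped. For MA24 vs MA12 the log2FC was 0.20 (SE 0.09, 95% confidence interval 0.02 to 0.39) and did not pass (adjusted p = 0.175, edgeR), and non-addicted rats differed from MA12 rats by 0.22 (SE 0.09). Groups that did not overlap were seen for 7.1% of all genes between non-addicted and MA12 rats, and among the kinases for *Camk1g*, which was known when the family was chosen, and *Camkk1*. Nothing is read from this count. Between non-addicted and MA24 rats it was 0.02 (SE 0.07), from the fit without the variance filter, since that filter had removed *Camkk1* and *Camk2b* there.

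*Camkk2*, the other upstream kinase gene, which also activates AMP-activated protein kinase, had levels of 6.57 to 6.90 in MA12 rats, 6.24 to 6.83 in MA24 rats and 6.50 to 6.88 in non-addicted rats. It did not pass between MA24 and MA12 (log2FC -0.10, SE 0.12, adjusted p = 0.662, edgeR). The within-rat log2 ratio of *Camkk1* to *Camkk2* was 0.29 ± 0.16 in MA12, 0.60 ± 0.25 in MA24 and 0.57 ± 0.21 in non-addicted rats (SD, n = 4). Individual MA12 and MA24 rats met at 0.39.

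Over the family, the median log2FC was -0.06 for MA24 vs MA12 (all genes -0.02), 0.19 over the 8 members tested for non-addicted vs MA24 (all genes 0.00) and 0.01 for non-addicted vs MA12 (all genes -0.01). The median of 0.19 leaves out *Camk2b* (-0.06) and *Camkk1* (0.02), which the variance filter removed and which would lower it. It includes *Camk1g*, whose high level was known beforehand, so no shift of the family is read from it. In non-addicted against MA24 rats, the 8 members other than *Camk1g* and *Camk2d* lay between -0.06 and 0.27. Of these, *Camk1d* (0.27, SE 0.13, adjusted p = 0.286, edgeR) and *Camk2g* (0.21, SE 0.13, adjusted p = 0.384) were the largest and did not pass. In non-addicted against MA12 rats, the members other than *Camk1g* and *Camkk1* lay between -0.08 and 0.15.

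**Figure D5:**
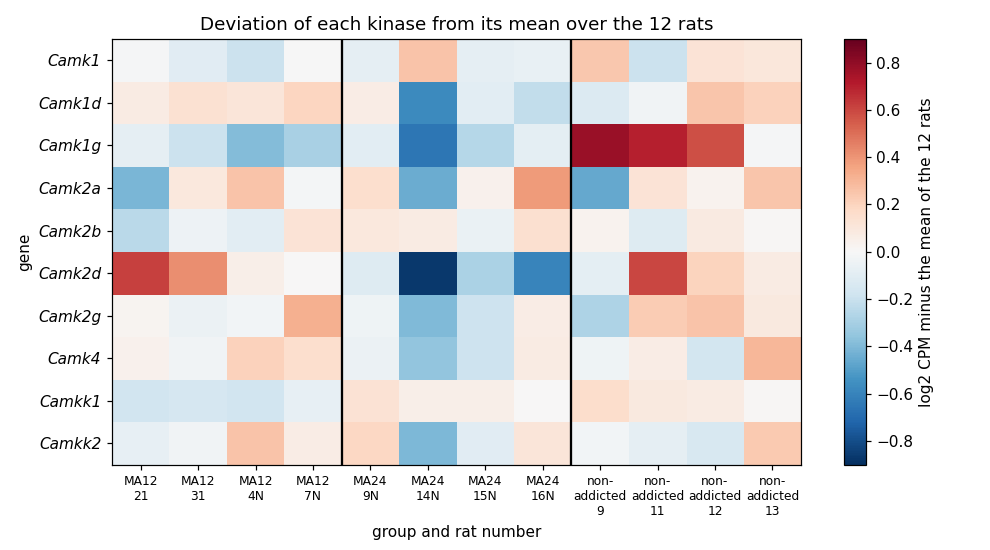
Deviation of each kinase gene (y axis) from its mean over the 12 rats, in log2 CPM (colour, red above and blue below the mean), by rat (x axis, groups divided by black lines). MA24 rat 14N is blue for 7 of 10 genes but red for *Camk1*, and the non-addicted rats 9, 11 and 12 are red for *Camk1g*.

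Single rats set much of the spread. MA24 rat 14N was the lowest of its group for 7 of the 10 kinase genes and the lowest of all 12 rats for 6 of them, *Camk1d*, *Camk1g*, *Camk2d*, *Camk2g*, *Camk4* and *Camkk2*, while it was the lowest of its group in 28.8% of 12649 genes. It was the highest rat of all for *Camk1* (6.83), just above non-addicted rat 9 (6.82). Across the 12 libraries, with group means removed, *Camk4* and *Camkk2* varied together (Pearson r 0.88), as did *Camk2a* and *Camkk2* (0.71), and *Camk1* ran opposite to *Camk2a* (-0.74). Of the 45 pairs of members, 7 had an r above 0.5 and 4 an r below -0.5. The points share library, depth scaling and dissection, so these are descriptions.

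The genes whose levels were most like those of *Camk1g* were *Tox4*, *Pold3*, *Chga*, *Smap2* and *Wdr6*. Their Pearson r over the 12 libraries was 0.93, 0.91, 0.90, 0.90 and 0.90, the highest of 10764 genes with a mean count of at least 50. With group means removed it was 0.79, 0.66, 0.92, 0.65 and 0.83, so that *Chga*, which encodes a protein of dense-core secretory vesicles, was the closest of these 5 within groups. Other genes were not ranked within groups. The lowest r belonged to *Egflam* (-0.89), *Cldn5* (-0.89), a tight junction gene of the blood-brain barrier, and *Fermt3* (-0.88).

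Outside the 10 kinases, 40 genes of the pathway in 5 lists were read, of which 38 were in the table. In MA24 vs MA12, 30 could be tested, and 7 passed, 1 higher and 6 lower, where 1.84% of all genes passed higher and 3.32% lower. Their median log2FC was -0.14, against -0.02 for all genes. *Grin2a* and *Creb1* were among genes already known to be lower when the lists were made, so the count is not independent evidence.

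Upstream of the kinases, calcium enters through NMDA receptors, whose subunit genes *Grin2a* and *Grin2b* were lower in MA24 than in MA12 rats. *Grin2a* was at 3.94 to 4.73 in MA12 and 2.55 to 3.56 in MA24 rats (log2FC -1.25, SE 0.19, adjusted p = 0.00471, edgeR), and *Grin2b* was at 4.22 to 4.81 and 3.57 to 4.04 (log2FC -0.79, SE 0.15, adjusted p = 0.00729). The non-addicted rats were at 3.22 to 4.06 for *Grin2a* and 3.75 to 4.67 for *Grin2b*. For *Grin2a* they had a log2FC of -0.74 against MA12 and 0.51 against MA24 rats, and neither passed (adjusted p = 0.0810 and 0.228, edgeR). *Grin2a* and *Grin2b* were 2 of the 6 tested genes of calcium entry and stores, and the other 4 did not pass between MA24 and MA12. Of the 6 genes of calmodulin and calmodulin-binding buffers, 2 could be tested and did not pass. *Calm2* and *Calm3*, which encode calmodulin, had log2FCs of 0.05 and 0.07 from the fit without the variance filter, with adjusted p of 0.759 and 0.642 (edgeR).

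Among 8 relatives and regulators of the kinases, *Camkv* and *Ppm1e* passed. *Camkv*, which encodes a kinase-like synaptic protein without known kinase activity, was higher in MA24 than in MA12 rats (log2FC 0.44, SE 0.10, adjusted p = 0.0195, edgeR). Its levels were 9.99 to 10.29 in MA12, 10.54 to 10.80 in MA24 and 10.42 to 10.54 in non-addicted rats. The non-addicted rats had a log2FC of 0.29 against MA12 and -0.15 against MA24 rats, and neither passed. *Ppm1e*, which encodes a phosphatase that removes activating phosphates from these kinases, was lower in MA24 than in MA12 rats (log2FC -0.99, SE 0.22, adjusted p = 0.0159, edgeR). Its levels were 4.01 to 4.92 in MA12, 2.73 to 3.82 in MA24 and 3.46 to 4.86 in non-addicted rats. *Camk2n1*, the gene of a CaMKII inhibitor protein, did not overlap between the groups and was the higher in MA24 rats, but its log2FC of 0.23 did not pass (adjusted p = 0.153, edgeR). *Pnck*, the gene of CaMKI beta, varied widely between rats of a group, with counts of 562, 403, 142 and 140 in MA12, 249, 134, 137 and 179 in MA24 and 463, 761, 507 and 117 in non-addicted rats. It did not pass for MA24 vs MA12 (log2FC -0.71, adjusted p = 0.153) or non-addicted vs MA24 (1.38, SE 0.33, adjusted p = 0.0622), and non-addicted rat 13 was its lowest rat.

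Downstream, 3 of 11 kinase targets passed lower and none passed higher, where 3.32% of all genes tested passed lower and 1.84% higher. They were *Creb1*, the gene of the transcription factor CREB (3.09 to 3.48 in MA12 and 1.87 to 2.87 in MA24 rats, log2FC -0.88, SE 0.21, adjusted p = 0.0248, edgeR), *Mef2a*, the gene of another activity-regulated factor (6.64 to 6.85 and 5.95 to 6.39, log2FC -0.47, SE 0.11, adjusted p = 0.0187), and *Nos1*, the gene of neuronal nitric oxide synthase (4.70 to 5.37 and 3.39 to 4.86, log2FC -0.76, SE 0.21, adjusted p = 0.0434). The MA12 and MA24 groups overlapped for *Nos1* but not for *Creb1* and *Mef2a*. The non-addicted rats were at 2.57 to 3.24 for *Creb1*, 6.36 to 6.68 for *Mef2a* and 3.44 to 4.76 for *Nos1*. Nothing is read from the count of 3 targets, because *Creb1* was already known to be lower when the list was made. The 3 tested genes of calcineurin, the calcium-dependent phosphatase, and its regulators did not pass. *Ppp3ca*, the gene of a catalytic subunit, was removed by the variance filter and had a log2FC of -0.08 (adjusted p = 0.626, edgeR) without it. Of the 30 pathway genes, 1 passed between the N rats alone 3 without MA12 rat 21 and 4 without MA24 rat 14N, against 7 with all 8 rats.

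In non-addicted vs MA24 rats, 0 of the 30 pathway genes tested passed in edgeR, with 9 at an unadjusted p below 0.05 and 1 passed in DESeq2. In non-addicted vs MA12 rats, 0 of 34 passed in edgeR, with 6 at an unadjusted p below 0.05 and 2 passed in DESeq2. The log2FC values in non-addicted against MA24 rats were -0.00 for *Calm2*, -0.04 for *Calm3*, -0.21 for *Camk2n1* and 0.11 for *Ppp3ca*.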

How the data were processed

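Striatal mRNA of 12 rats was sequenced from TruSeq v2 libraries. The authors trimmed reads with Cutadapt (1.18), aligned them with STAR (2.7.0e) to rn6 and counted them with featureCounts, and they deposited raw counts for 17337 genes. The processing notes also name HTSeq (0.12.4), without a role. The annotation, strand setting and treatment of multimapping reads are not given in the sources used here, so reads shared by overlapping genes could be split or lost. All 12 count columns were matched to rats by name, and 0 columns belonged to no sample. No coordinates or sequences were used, since transcript lengths and an rn6 annotation were not analysed here.

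Each comparison was fitted on its 8 rats with edgeR (4.0.16, R 4.3.3), using TMM scaling and the quasi-likelihood test. Genes needed a mean count above 4, and a variance filter then took out the least variable 15% on the TMM-scaled log2 CPM scale. The limits of 4 and 15% are those the study names. It reports a single filtered set of genes, whereas the filter here was run on each comparison, so the genes tested are not the study's set. P-values were adjusted by Benjamini-Hochberg over all genes tested, and passed means an adjusted p below 0.05. Members removed by the variance filter were read from the fit without it. P-values weigh the difference between groups against the spread between rats, 4 per group, with the spread of each gene moderated over all genes. The pathway lists, the marker lists and the 10 members were chosen with earlier results of these data known. The methods do not give the scale on which variance was ranked. It was first ranked on unscaled log2 CPM. After results had been seen, several scales and fit options were tried, and TMM-scaled values were adopted because they gave the counts of genes of an earlier processing of these data. *Camk1g* passed in non-addicted vs MA24 with this ranking and not with the first one, which is kept as an alternative.

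Named from the pathway lists were genes that passed in MA24 vs MA12 or non-addicted vs MA24, up to 3 per list and comparison, plus *Calm2*, *Calm3*, *Camk2n1*, *Pnck*, *Ppp3ca* and 1 gene that is not reported here, and the 5 genes with the highest and 3 with the lowest correlation with *Camk1g*. The scripts were tested on simulated data. Alternatives were DESeq2 (1.42.0), other size factors, other filters, all 3 groups in a fit, leaving out each rat, and the kind of rat number. Figures were drawn with matplotlib (3.10.9). Depth, at 17908962 counts or more per library, left at least 205 counts for every member in every rat.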

Additional observations from a re-analysis of the deposited data

Results flagged for a closer look

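One value stood apart within its group. The *Camk1* level of MA24 rat 14N, 6.83 log2 CPM, lay above the other 3 MA24 rats, at 6.49 to 6.51, and its gap to the nearest of them was 0.958084 of the range of the group, over the 95% critical value of Dixon for 4 samples. It was 1 of 30 groups examined (10 genes in 3 groups), where chance alone would give 1.5. The same rat was the lowest of the 12 for 6 of the other kinase genes.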

How the results depend on the processing

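For MA24 vs MA12 the count of genes that passed was 555 (edgeR), 979 with DESeq2, 131 between rats numbered with N, 49 with the kind of number as a covariate, and 215 to 809 when 1 rat was left out. The count of kinase genes there, 1, was 0 in the N rats and 0 with the covariate (3 at an unadjusted p below 0.05 each), and 0 to 2 when 1 rat was left out. For non-addicted vs MA24 the 59 genes became 253 with DESeq2, 0 without the variance filter (2229 unadjusted), 13 without any filter, 0 with 10 or more counts required in all libraries (2146 unadjusted), 4 with all 3 groups in the fit, 18 with variance ranked without TMM scaling, and 0 to 266 when 1 rat was left out (0 without non-addicted rat 12, 1211 unadjusted). The kinase genes there were 2 with DESeq2, 0 to 2 when 1 rat was left out, and 0 in edgeR (2 or 3 unadjusted) under the other 5 settings just named. For non-addicted vs MA12 the 29 genes became 173 with DESeq2, 5 without the variance filter, 13 without any filter, 4 with 10 or more counts, 19 with all 3 groups, 11 with variance ranked without TMM scaling, 68 in rats without N, and 8 to 114 when 1 rat was left out. The planned count of kinase genes that passed is not given for non-addicted vs MA12, since they have no test there. In the 2 comparisons with tests, a member changed sign only where it had not passed. For MA24 vs MA12, *Camk1g* was 0.00581 with variance ranked without TMM scaling, 0.0952 in N rats, 0.0790 with the covariate and -0.0826 to 0.0876 when 1 rat was left out. *Camk2a* was -0.0515 in N rats, -0.0689 with the covariate and -0.0634 to 0.198 when 1 rat was left out, and *Camkk2* was -0.179 to 0.00724. For non-addicted vs MA24 with 1 rat left out, *Camk1* was -0.00197 to 0.148, *Camk2a* -0.198 to 0.0687 and *Camkk2* -0.0713 to 0.121. For non-addicted vs MA12, 6 of the 10 members took both signs over the 16 alternatives: *Camk1d* (-0.11 to 0.02), *Camk2a* (-0.11 to 0.16), *Camk2d* (-0.29 to 0.04), *Camk2g* (-0.05 to 0.12), *Camk4* (-0.13 to 0.06) and *Camkk2* (-0.13 to 0.07). The cause of these changes was not tested. The ranking without TMM scaling and the pathway counts under every setting were added after the data had been seen. No paired analysis was possible because the groups share no rat number in the labels.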
